A study of Mus musculus with 25 samples.

Results

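The cytosolic ribosomal protein (RP) genes encode the protein part of the ribosome that translates nuclear mRNAs. They were taken from the count table by name (Rpl or Rps with a number, with Rplp0, Rplp1, Rplp2 and Rpsa), leaving out named pseudogenes, the Rps6k kinases and rows whose mean over the 25 libraries was under 20 CPM, the count of a gene per 1e+06 counts of the library. Of the 48440 rows, 88 had such a name and 68 passed the minimum, 40 of the large and 28 of the small subunit. Annotated as protein coding were 64, and 4 as processed pseudogenes (Rps3a2, Rps3a3, Rps4l and Rpl6l). The minimum used the level over all libraries and no comparison. Just inside it lay Rps3a2 with 20.2 CPM and just outside Rpl38 with 15.6 CPM.

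The libraries came from E14, a feeder-free line of mouse embryonic stem (ES) cells grown with serum and leukemia inhibitory factor. The unedited cells gave 10 libraries, taken after 48 h with 0, 2.5, 5, 7.5 or 10 µM CHIR99021, an inhibitor of GSK3 that stabilises β-catenin, with 2 libraries per dose. The other 15 were clonal lines without CHIR99021, each heterozygous for 1 of 11 missense mutations at S37, T41 or S45 of β-catenin (Ctnnb1 exon 3), the degron that GSK3 and CK1 phosphorylate. Clones were grouped by the order of their mutation in the reporter screen of the study, as low (T41S, T41N and S45C, 1 clone each), medium (S45P and 2 clones of S45F) and high (S37A, S37C, S37Y and 2 clones each of S37F, T41A and T41I). A clone was the unit of replication, 7 of the 11 mutations had 1 clone, and nothing states that the 2 libraries of a dose came from separate cultures, so that p-values measure the spread between these libraries.

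RPs are made in the cytoplasm, imported into the nucleus and assembled on ribosomal RNA in the nucleolus. Their mRNAs are among the most abundant in dividing cells and usually begin with a cytosine followed by a run of pyrimidines, the 5′ terminal oligopyrimidine (TOP) motif, through which LARP1 and mTORC1 control their translation. A change in mRNA level, as measured here, is a different quantity from a change in translation.

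The annotated start sites were searched for a looser form of this feature, which did not require a cytosine as the first transcribed base. The RefSeq promoter table (GRCm38.p6) held 49 of the 68 genes. A run of at least 5 pyrimidines that reached within 5 bases of an annotated start was found on the sense strand in 29 of the 49 (59.2%), and in 35.1% of the 27025 genes in the table. The windows below are those of the 4 genes of the table with the largest rises from low to high clones, followed by the 3 that changed with CHIR99021 and by a gene that did not pass either test. Each holds 15 bases on either side of the start, so that the sixteenth letter is the first transcribed base, and capitals mark the pyrimidine run.
Rpl34 (chr3:130730384-130730413, minus strand): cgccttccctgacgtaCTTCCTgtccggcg
Rpl10l (chr12:66284387-66284416, minus strand): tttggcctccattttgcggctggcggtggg
Rps18 (chr17:33955651-33955680, minus strand): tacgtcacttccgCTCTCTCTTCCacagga
Rpl15 (chr14:18270972-18271001, minus strand): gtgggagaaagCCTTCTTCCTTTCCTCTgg
Rpl12 (chr2:32961697-32961726, plus strand): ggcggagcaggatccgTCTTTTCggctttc
Rps16 (chr7:28350674-28350703, plus strand): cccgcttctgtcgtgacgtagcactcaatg
Rpl39l (chr16:10170213-10170242, plus strand): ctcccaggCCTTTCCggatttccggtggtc
Rplp0 (chr5:115559452-115559481, plus strand): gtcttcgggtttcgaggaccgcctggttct
Among these windows the run covered the first transcribed base in Rps18 and Rpl15. It began after that base in Rpl34 and Rpl12 and ended before it in Rpl39l. Rpl10l, Rps16 and Rplp0 held no such run at the annotated start. Rpl34 and other genes with a second start were counted if either start held one.

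Letters of known motifs were also counted in the 300 bases from 250 before to 50 after each start, on both strands. The ETS family motif CCGGAAG was present for 21 of the 49 genes (42.9%) against 9.93% of all genes. The YY1 motif AAGATGGC was present for 5 (10.2%, against 3.19%) and the E-box CACGTG for 6 (12.2%, against 8.09%). The TCF/LEF motif CTTTGAT, the form bound by the partners of β-catenin, was in none of the 49 windows and in 4.29% of all. A pyrimidine run was found in 17 of 29 genes that rose from low to high clones and in 12 of 20 that did not pass that test, the ETS letters in 12 and 9, the YY1 letters in 2 and 3 and the E-box in 4 and 2, and these differences were not tested. A match of letters is a description and no evidence of binding.

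The libraries held 306157 to 2083398 counts, and 3 counts, the most that a count of 0 allows, came to 1.44 to 9.80 CPM. The ES cell markers Nanog, Sox2, Zfp42, Esrrb, Klf4, Dppa5a and Tdgf1 were present in every library at 120.9 CPM or more, whereas Pou5f1, which defines these cells, was listed at 9.05 to 28.8 CPM. Axin2, a direct target of β-catenin used here as a check, rose by 0.28 ± 0.03 (SE) log2 units per µM of CHIR99021 (edgeR adjusted p = 1.26e-07) and by 0.85 ± 0.25 from low to high clones (edgeR adjusted p = 0.0134), with -0.36 ± 0.32 from low to medium clones (edgeR adjusted p = 0.522). Sp5, another target, rose with CHIR99021 (0.26 ± 0.03, edgeR adjusted p = 2.49e-06) and did not pass from low to high clones (0.26 ± 0.27, edgeR adjusted p = 0.511). Mitochondrial transcripts took 0.485 to 1.46% of the counts in unedited cells and 1.53 to 2.52% in clones. A set of 4 unedited libraries stood apart from the other 6 with under 0.8%. It held replicate 2 of untreated cells and the first replicate of the 2.5, 5 and 10 µM doses. These were also the 4 smallest unedited libraries, with 306157 to 940544 counts against 1311779 to 2083398 in the other 6. A split by mitochondrial share is therefore also a split by depth.

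RP mRNAs made up a large share of each library. At 0 µM the 68 genes took 11.02% and 12.3% of all counts, at 2.5 µM 13.9% and 11.9%, at 5 µM 13.5% and 12.9%, at 7.5 µM 12.4% and 12.1%, and at 10 µM 13.99% and 12.4%. The values at 2.5 and 7.5 µM overlapped those at 0 µM, and the values at 5 and 10 µM lay above them. The share was 12.3 to 13.99% in the 4 libraries with few mitochondrial transcripts and few counts, and 11.02 to 12.9% in the other 6. The part of mitochondrial share or of depth in the spread within a dose was not tested.

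The clones had lower shares, which were lowest in the low class. The low clones T41S, T41N and S45C had 6.80%, 7.38% and 7.52% (mean 7.23 ± 0.385%, SD, n = 3). The medium clones had 7.92% for S45P and 8.65% and 8.21% for S45F (8.26 ± 0.371%, SD, n = 3). In the high clones the share ran from 8.62% in T41I to 10.6% in S37F, with a median of 9.14% (mean 9.32 ± 0.594%, SD, n = 9). Every low clone lay below every medium and high clone, the highest medium clone lay inside the range of the high clones, and every clone lay below every unedited library. Both subunits shared this order, with means of 3.64%, 4.203% and 4.80% for the large subunit in low, medium and high clones. Counted over transcripts other than mitochondrial ones, the means were 7.38%, 8.43% and 9.51%. A share of the library is a relative quantity, and fewer cells of a type cannot be told apart from less RNA per cell in bulk samples.

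**Figure D1:**
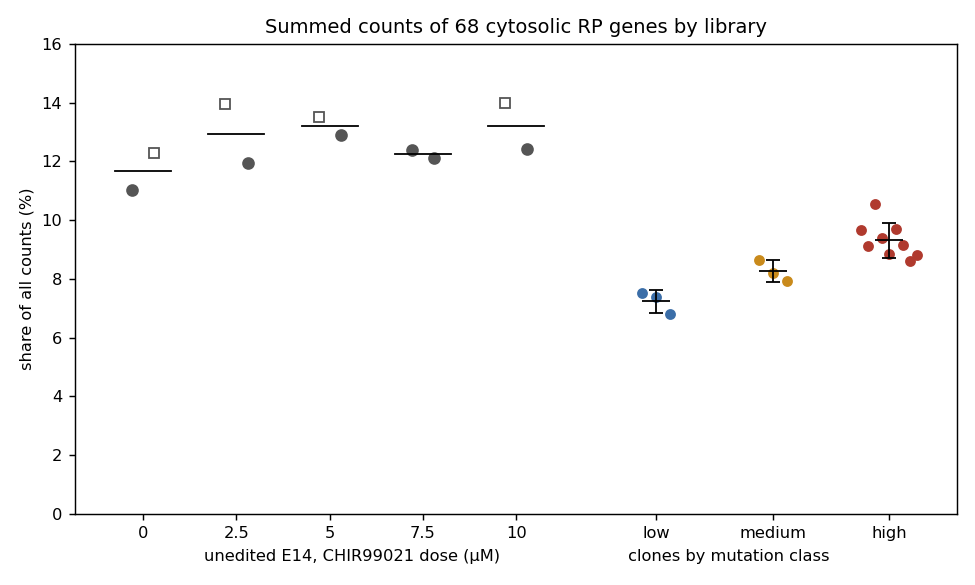
Summed counts of the 68 RP genes as a percentage of all counts (y axis) in each library, for 5 doses of CHIR99021 in unedited cells and for 3 classes of β-catenin mutant clones (x axis). Open squares mark the 4 unedited libraries with few mitochondrial transcripts, horizontal lines the mean, and error bars on the clones the SD. All 15 clones sit below the 10 unedited libraries, and the 3 low clones, at 6.80 to 7.52%, sit below the rest.

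The comparison of high with low clones asks which genes differed between mutations with strong and weak reporter activity. Of the 68 RP genes 42 were higher in the high clones and 0 were lower (edgeR quasi-likelihood test, Benjamini-Hochberg adjusted p under 0.05 over 10452 genes). Over all genes tested 13.1% were higher and 16.6% lower. At an unadjusted p under 0.05, 49 of the 68 passed (72.1%, against 39.5% of all genes). DESeq2 also called 42 higher and 0 lower, against 12.4% and 15.4% of all genes. The median change was 0.34 log2 units for the RP genes and 0.01 for all genes, and 65 of 68 had a positive sign. The rise ran through both subunits, with 22 of 40 large-subunit and 20 of 28 small-subunit genes called. By level, 27 of 33 were called above 1000 CPM, 9 of 21 between 100 and 1000 CPM and 6 of 14 below 100 CPM. The share of all genes called was not computed by level, so the 13.1% is not a share at matched level.

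**Figure D2:**
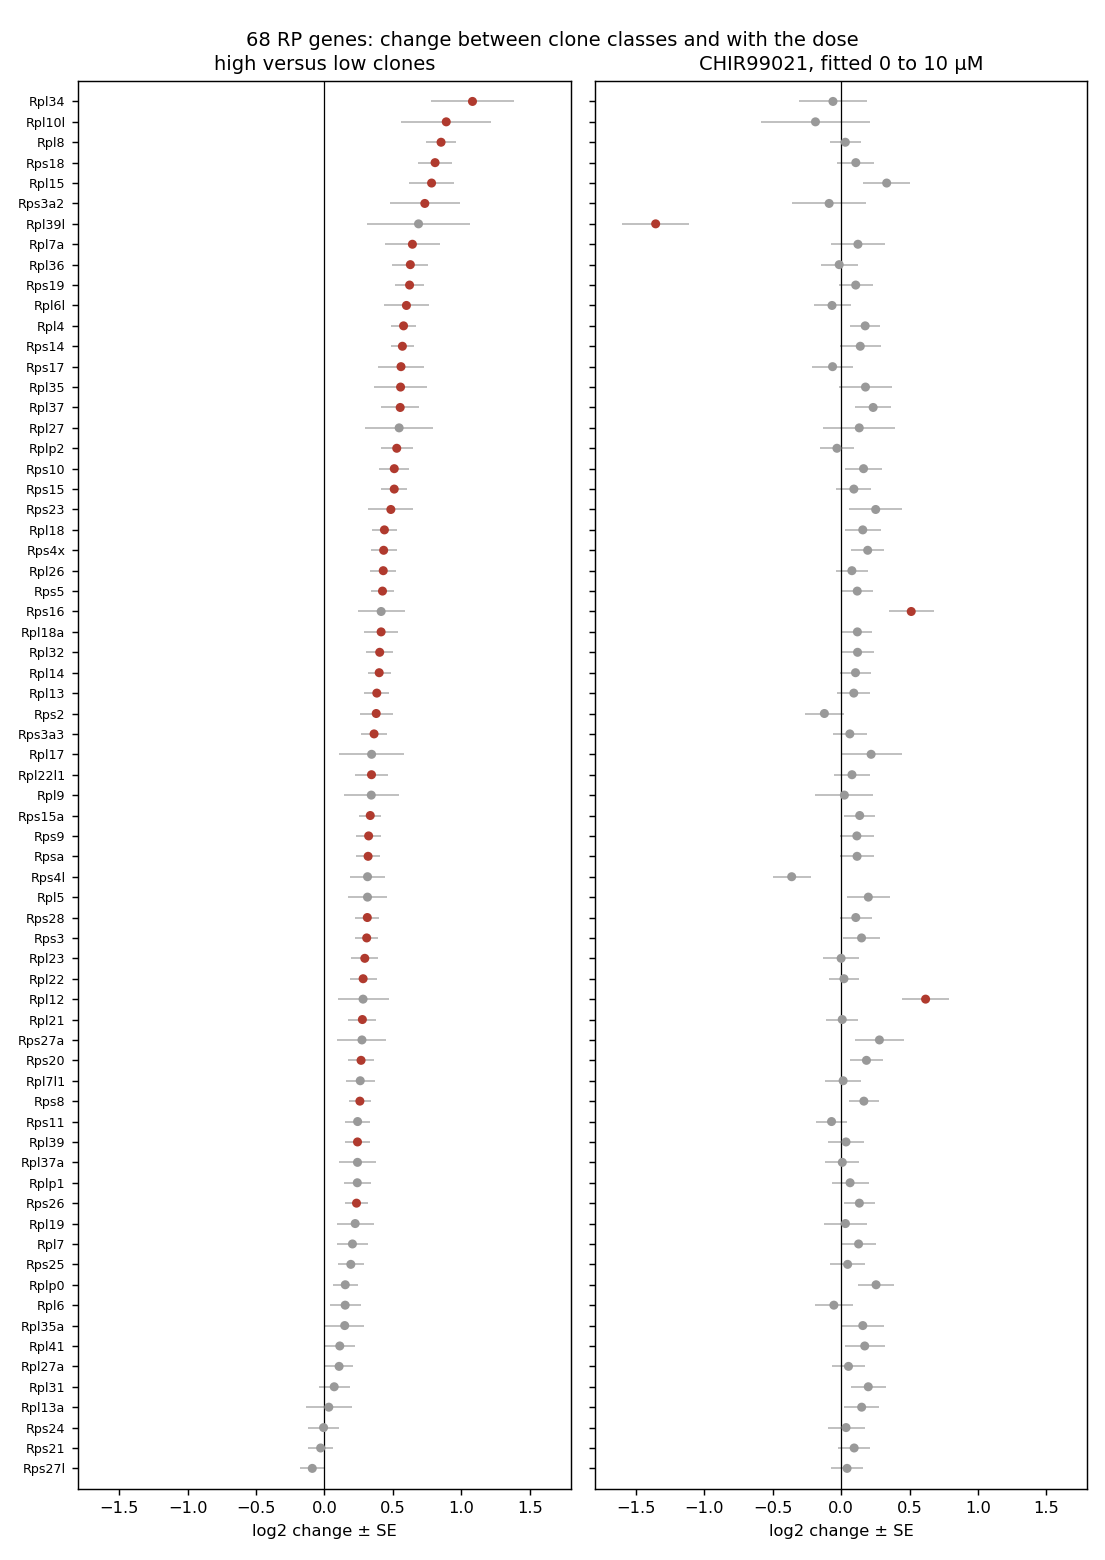
Log2 change ± SE of each of the 68 RP genes (rows) between high and low clones (left) and fitted from 0 to 10 µM CHIR99021 in unedited cells (right), with genes at an adjusted p under 0.05 in red. On the left 65 points lie right of 0 and 42 are red, whereas on the right 3 are red, with Rpl39l at -1.35.

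Rpl8, a large-subunit protein at the peptidyl transferase centre and the most abundant mRNA of the group (mean 7839 CPM), had 4384 CPM in S45C, 4237 in T41N and 3932 in T41S. The medium clones had 5837, 5471 and 5805 CPM, and the high clones 5923 to 9046 CPM with a median of 7344. The 3 classes did not overlap and followed the order low, medium, high. The difference between high and low was 0.85 ± 0.11 (SE) log2 units (edgeR adjusted p = 3.37e-06), and Rpl8 was the only RP gene that also passed the test between medium and low (0.42 ± 0.13, adjusted p = 0.0322) and between high and medium (0.43 ± 0.11, adjusted p = 0.0245). Apart from S37F replicate 1, all clones stayed below the lowest unedited library of 8863 CPM.

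Rps18, a protein of the head of the small subunit, had 1071 CPM in S45C, 944 in T41N and 925 in T41S, and the medium clones had 1427, 1312 and 1268 CPM. The high clones ran from 1412 to 2127 CPM with a median of 1654. Low clones lay below all others, while medium and high clones overlapped. The rise from low to high was 0.81 ± 0.13 log2 units (edgeR adjusted p = 4.32e-05).

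Rpl15, a large-subunit protein needed for assembly, had 84.5 CPM in S45C, 82.7 in T41N and 73.4 in T41S. The high clones had 123 to 150 CPM with a median of 140, and 1 medium clone lay near the low clones (S45P, 86.5 CPM) while the S45F clones had 182 and 129 CPM. The rise from low to high was 0.78 ± 0.16 log2 units (edgeR adjusted p = 0.00098), with no overlap. In unedited cells Rpl15 spanned 75.7 to 128 CPM.

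The largest rise on the log2 scale belonged to a gene of low level. Rpl34 had 21.1 CPM in S45C, 12.1 in T41N and 7.34 in T41S, and 18.6 to 37.1 CPM with a median of 26.2 in the high clones. The classes overlapped, and the change of 1.08 ± 0.30 log2 units (edgeR adjusted p = 0.00984) fell to 0.61 with an adjusted p of 0.248 when T41S was left out. Rpl10l, an autosomal retrocopy of the X-linked Rpl10 best known from male germ cells, had 49.8, 32.3 and 9.60 CPM in S45C, T41N and T41S and 30.7 to 66.8 CPM with a median of 50.3 in the high clones. Its change of 0.89 ± 0.33 log2 units (edgeR adjusted p = 0.0441) was 0.24 with an adjusted p of 0.627 without T41S and 1.58 without S45C (for Rpl34, 1.56 without S45C). The call of Rpl10l was also lost in DESeq2 (adjusted p = 0.0523), after thinning and without any of 6 other clones, and that of Rpl34 after thinning (adjusted p = 0.168).

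The most abundant mRNAs after Rpl8 were Rpl32 and Rps3. Rpl32, of the large subunit, had 4254, 4445 and 3836 CPM in S45C, T41N and T41S and 4971 to 6226 CPM with a median of 5330 in the high clones, a rise of 0.40 ± 0.10 log2 units (edgeR adjusted p = 0.00383). Rps3, a small-subunit protein at the mRNA entry channel that also takes part in DNA repair, had 3587, 3658 and 3482 CPM against 4014 to 4798 CPM with a median of 4337, a rise of 0.31 ± 0.08 (edgeR adjusted p = 0.00797) that missed the threshold with library total as a covariate (adjusted p = 0.0676). For both the high clones lay above all low clones. Over the 68 genes that was so for 31, against 11.5% of the 7091 genes of any kind above the same minimum, and no RP gene had all high clones below all low clones.

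**Figure D3:**
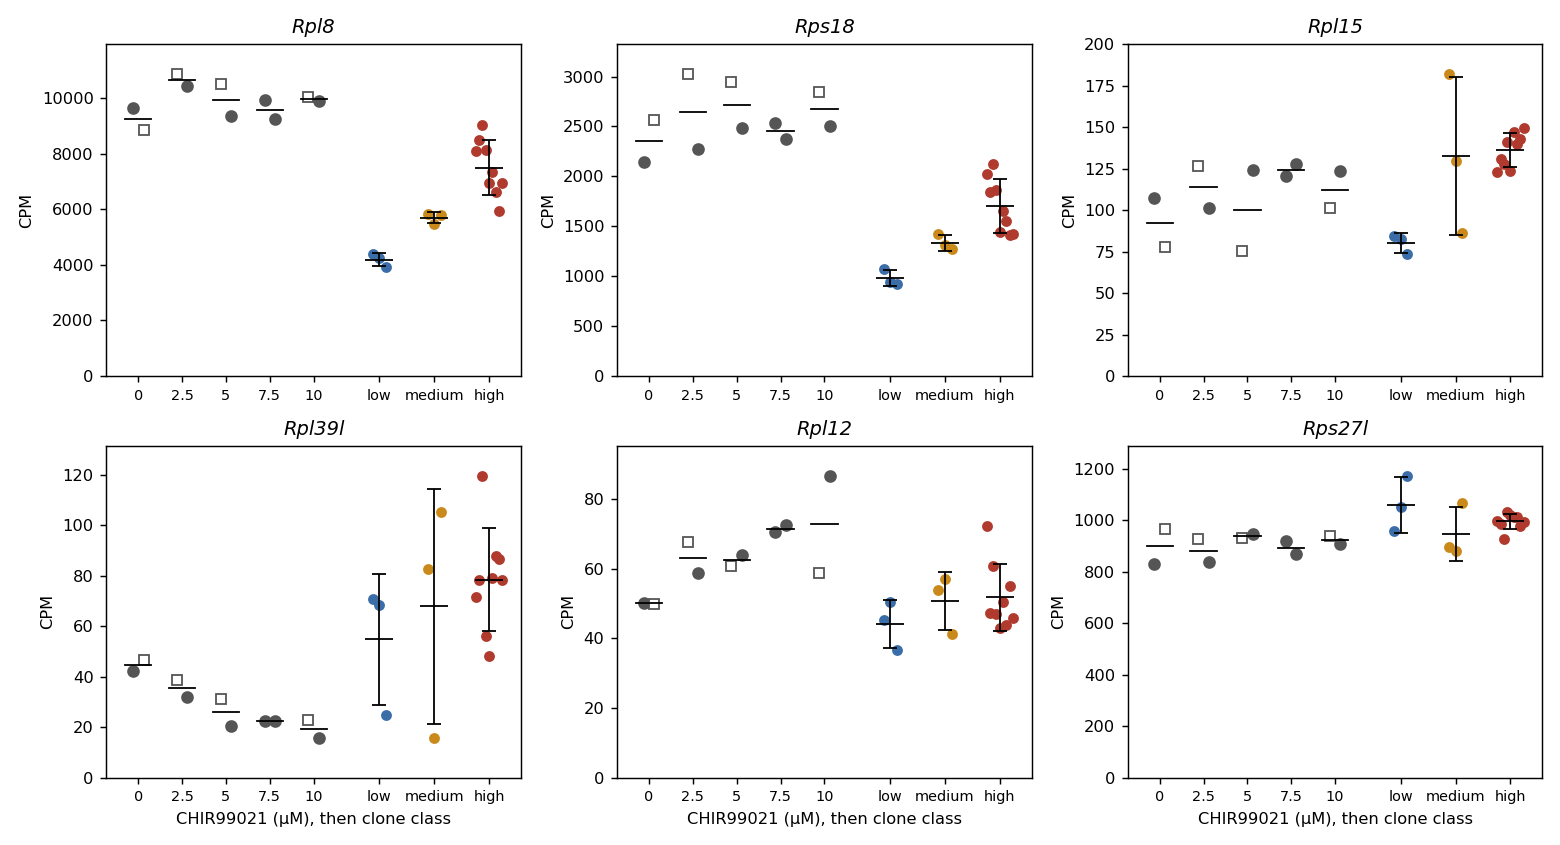
Level in CPM (y axes, from 0) of 6 RP genes in each library, by CHIR99021 dose in unedited cells and by class of the clones (x axes). Lines show means, error bars on the clones the SD, and open squares the 4 unedited libraries with few mitochondrial transcripts. Rpl8 and Rps18 step up from low to high clones, Rpl39l falls over the doses from 42.4 and 46.8 to 22.9 and 15.8 CPM, and Rps27l spans 832 to 1173 CPM over all libraries.

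The other 28 genes called between high and low clones, which are not described singly, rose by 0.23 (Rps26) to 0.64 (Rpl7a) log2 units.

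The remaining 26 RP genes did not pass this test. Rps27l, a p53-inducible copy of Rps27, had 956, 1051 and 1173 CPM in S45C, T41N and T41S and 929 to 1033 CPM with a median of 998 in the high clones, a difference of -0.09 ± 0.09 log2 units (edgeR adjusted p = 0.495) that was the lowest of the 68. Rpl13a, which also acts in the GAIT complex of interferon-treated cells, had 818, 694 and 581 CPM against 546 to 979 CPM with a median of 620 (0.03 ± 0.17, edgeR adjusted p = 0.919). Rplp0, the core of the ribosomal stalk and a frequent reference gene for qPCR, had 3612, 3006 and 3353 CPM against 3270 to 4115 CPM with a median of 3689 (0.15 ± 0.09, edgeR adjusted p = 0.217). The groups overlapped for all 3 genes, and a p that misses the threshold does not show equal levels.

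Rpsa, which doubles as the laminin receptor, had 2227, 2381 and 2324 CPM in S45C, T41N and T41S and 2685 to 3007 CPM with a median of 2890 in the high clones, and rose by 0.32 ± 0.09 log2 units (edgeR adjusted p = 0.00738, and 0.063 with library total as a covariate). Rps27a, whose product is a fusion of ubiquitin to an RP, had 43.7, 36.3 and 32.8 CPM against 36.0 to 52.3 CPM with a median of 45.3 and did not pass (0.27 ± 0.18, edgeR adjusted p = 0.268). Rps6, the substrate of the S6 kinases, was below the minimum with a mean of 3.79 CPM and was not among the 68.

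Copies of one RP gene could be followed side by side in 4 pairs (Rpl22, Rps4x, Rpl39 and Rpl7 with their copies). Rpl22 had 959, 839 and 864 CPM in S45C, T41N and T41S and 957 to 1292 CPM in the high clones, and rose by 0.28 ± 0.10 log2 units (edgeR adjusted p = 0.0341). Its copy Rpl22l1, which replaces it in some ribosomes and whose splicing Rpl22 represses, had 570, 434 and 405 CPM against 506 to 771 CPM and rose by 0.34 ± 0.12 (edgeR adjusted p = 0.0394). Both calls were lost without T41N or T41S and with library total as a covariate (adjusted p of 0.117 for Rpl22 and 0.0895 for Rpl22l1), and that of Rpl22l1 also without S37A and after thinning. Against unedited cells (1615 to 1831 CPM for Rpl22 and 488 to 715 CPM for Rpl22l1) all clones lay below for Rpl22 and overlapped for Rpl22l1.

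Rps4x, the X-linked small-subunit gene, rose from 1223, 1229 and 1196 CPM in the low clones to 1447 to 1862 CPM in the high clones (0.43 ± 0.10 log2 units, edgeR adjusted p = 0.00145). The annotated pseudogene Rps4l had 498, 478 and 325 CPM against 475 to 591 CPM and did not pass (0.31 ± 0.13, edgeR adjusted p = 0.0743), though it did with library total as a covariate (0.54, adjusted p = 0.0041), without a filter and without S45C or either S45F clone. Rpl13, which shares only its number with Rpl13a, rose by 0.38 ± 0.09 (edgeR adjusted p = 0.00276) from 2015, 2185 and 1793 CPM to 2412 to 3051 CPM without overlap. Reads of near-identical copies and pseudogenes can be split between them, so values of such pairs are uncertain.

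Rpl39, a short protein that lines the exit tunnel, had 1421, 1356 and 1240 CPM in S45C, T41N and T41S and 1423 to 1757 CPM in the high clones (0.24 ± 0.09 log2 units, edgeR adjusted p = 0.0457), a call lost without any of 7 clones, without a filter and with library total as a covariate. Rpl39l, its copy on chromosome 16 that is enriched in germ and ES cells, varied most among clones of one mutation. Its level was 70.9, 68.6 and 24.9 CPM in the low clones, 82.8 and 15.6 CPM in the 2 S45F clones and 48.4 to 120 CPM in the high clones, and the change of 0.69 ± 0.38 did not pass (edgeR adjusted p = 0.184). Rpl7 had 338, 327 and 304 CPM against 323 to 454 CPM (0.20 ± 0.11, edgeR adjusted p = 0.188). Rpl7l1, an Rpl7 relative that works in assembly of the large subunit, had 196, 206 and 161 CPM against 195 to 245 CPM (0.26 ± 0.11, edgeR adjusted p = 0.0662, and 0.047 in DESeq2). Rps3a2, the lowest of the 68, had 15.1, 12.1 and 9.60 CPM against 12.8 to 24.6 CPM (0.73 ± 0.26, edgeR adjusted p = 0.0344), a call lost in DESeq2 (adjusted p = 0.0772), without a filter, after thinning and without T41N or T41S.

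The medium clones fell between the others for many RP genes but not all, with a positive change from low to medium for 57 of 68 and from medium to high for 62. Between medium and low clones 5 of 68 RP genes were higher and 0 lower (Rpl8, Rpl15, Rpl4, Rps14 and Rps4x), against 3.66% of all genes higher and 7.29% lower, and 16.2% of the RP genes passed at an unadjusted p under 0.05 against 26.0% of all genes. Rpl15 had the largest of these changes (0.74 ± 0.19 log2 units, edgeR adjusted p = 0.0147). Between high and medium clones 6 were higher and 0 lower (Rpl8, Rpl26, Rps15, Rps19, Rps23 and Rps28), against 2.13% of all genes higher and 2.37% lower, and 44.1% of the RP genes passed at an unadjusted p under 0.05 against 20.1% of all genes. Rps23, which lies at the decoding centre, had the largest of these (0.76 ± 0.16, edgeR adjusted p = 0.0106), and its medium clones, at 39.5, 25.7 and 39.9 CPM, overlapped the low clones at 43.7, 44.4 and 38.4 CPM. The medians of the 68 were 0.17 and 0.21 log2 units, with all genes at 0.00 and 0.01. All medium clones lay above all low clones for 19 RP genes (15.2% of all genes of that level), and all high clones above all medium clones for 12 (2.79%).

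Spread among clones of one mutation gave a scale for these differences. It came from the 4 mutations with 2 clones (S37F, T41A, T41I and S45F). No low mutation had a second clone, so it does not cover clone spread in the low class. The SD of the log2 level over all 15 clones was compared with that between the 2 clones of the same mutation. It was over 1.5 times as large for 40 of the 68 genes, with a median ratio of 1.66. This ratio includes the differences between classes. It was not computed for other genes, so 40 of 68 cannot be set against a share of all genes. The ratio was highest for Rps18 (4.21), followed by Rps15 (3.25) and Rpl8 (3.24), and lowest for Rpl39l (0.827).

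Cell type markers also differed between low and other clones. The sum of the 8 ES cell markers was 1823 to 2821 CPM in low, 3630 to 4872 in medium and 4183 to 5471 in high clones, and 3388 to 4476 in unedited cells. The sum of 3 fibroblast markers (Col1a1, Col1a2 and Thy1) was 46.8 to 153 CPM in low clones, 4.59 to 18.6 in medium, 4.13 to 15.8 in high and 27.1 to 88.4 in unedited cells, and Col1a1 and Col1a2 were at 0 in at least 1 library. The sum of 3 trophoblast markers was 10.6 to 26.2 CPM in low, 1.26 to 7.99 in medium, 2.33 to 7.19 in high clones and 1.06 to 24.7 in unedited cells, and that of 4 primitive endoderm markers reached 201 CPM in a high clone and at most 19.8 in low clones. Mesendoderm and neural marker sums overlapped between the classes. The part of these cells in the result was not tested. With the ES cell marker sum as a covariate, an alternative chosen after seeing the data, 0 of 68 RP genes and 0 of 10836 genes passed in edgeR, 5 and 1014 at an unadjusted p under 0.05. The median change of the RP genes was then 0.20 log2 units, with Rpl8 at 0.78 and Rps18 at 0.57. Class and marker level therefore cannot be told apart here. Without T41S, 24 RP genes passed, all of them among the 42, with a median of 0.29. Over all genes 6.72% were then higher and 8.93% lower, against 13.1% and 16.6% with all clones.

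Few RP genes passed the test with CHIR99021. Over the 5 doses 2 of 68 were higher and 1 lower with rising dose (edgeR quasi-likelihood test, adjusted p under 0.05 over 10033 genes), against 5.89% and 6.63% of all genes, and 4 passed at an unadjusted p under 0.05 (5.88%, against 25.4% of all genes). With a block by mitochondrial share 5 were higher and 1 lower, against 6.55% and 7.68% of all genes, and 20 passed unadjusted (29.4%, against 27.1%). Fitted over the whole range to 10 µM, the median change was 0.11 log2 units for the RP genes and 0.01 for all genes. All 33 RP genes above 1000 CPM had a positive slope, of at most 0.03 log2 units per µM, and 0 of them passed, also at an unadjusted p under 0.05. DESeq2 called 1 RP gene higher and 1 lower in all, against 4.67% and 5.00% of all genes. Without replicate 1 at 0 µM the median slope of the 68 was 0.0002 log2 units per µM in place of 0.01. Both libraries at 10 µM lay above both at 0 µM for 27 RP genes, against 22.7% of all genes of that level, and below for 3 (Rpl39l, Rpl7l1 and Rps2), against 27.1%.

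Rpl39l fell with the dose. It had 42.4 and 46.8 CPM at 0 µM, 38.8 and 32.0 at 2.5 µM, 31.3 and 20.6 at 5 µM, 22.5 and 22.5 at 7.5 µM, and 22.9 and 15.8 at 10 µM. No library with CHIR99021 reached the level of the untreated ones. The slope was -0.135 ± 0.025 log2 units per µM (edgeR adjusted p = 0.000259), which is 0.391-fold over 10 µM. It stayed between -0.141 and -0.127 with each library left out in turn. After thinning to the smallest library Rpl39l did not pass the filter and was not tested. Rpl39, the copy that shares its name, had 1964 and 2105 CPM at 0 µM and 2584 and 1936 CPM at 10 µM (0.004 ± 0.013 per µM, edgeR adjusted p = 0.906).

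Rpl12, a protein of the stalk base, rose. It had 50.01 and 49.97 CPM at 0 µM, 67.5 and 58.7 at 2.5 µM, 60.9 and 63.8 at 5 µM, 70.4 and 72.6 at 7.5 µM, and 58.8 and 86.6 at 10 µM. Every treated library lay above both untreated ones, and the slope was 0.062 ± 0.017 log2 units per µM (edgeR adjusted p = 0.0146). Rps16, near the decoding centre of the small subunit, had 57.6 and 62.7 CPM at 0 µM, 76.2 and 63.3 at 2.5 µM, 80.6 and 70.6 at 5 µM, 79.8 and 77.8 at 7.5 µM, and 78.4 and 89.6 at 10 µM, again with every treated library above the untreated ones. Its slope was 0.051 ± 0.016 (edgeR adjusted p = 0.0344). Both calls were lost without either library at 0 µM, without replicate 2 at 10 µM, and after thinning to the smallest library, where the slope of Rpl12 was 0.0077 (adjusted p = 0.937) and that of Rps16 0.058 (adjusted p = 0.264). Rps16 also missed the threshold in DESeq2 (adjusted p = 0.0639), without a filter, with dose as a factor, and without 2.5 µM replicate 2 or either library at 7.5 µM.

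Both Rpl8 and Rps18, which were among the 5 largest rises between clone classes, showed slopes near 0 with CHIR99021. Rpl8 had 9645 and 8863 CPM at 0 µM and 10047 and 9904 CPM at 10 µM (0.003 ± 0.011 per µM, edgeR adjusted p = 0.903), and Rps18 had 2146 and 2560 CPM at 0 µM and 2842 and 2509 CPM at 10 µM (0.011 ± 0.014, edgeR adjusted p = 0.676). Rplp0 had 3870 and 4783 CPM at 0 µM and 5416 and 5396 CPM at 10 µM (0.026 ± 0.013, edgeR adjusted p = 0.234). Within the 6 libraries with more mitochondrial transcripts its slope was 0.046 (edgeR adjusted p = 0.0138), and 3 RP genes were higher and 2 lower there, against 4.44% and 5.42% of all genes. With the block by mitochondrial share over all 10 libraries its slope was 0.032 (edgeR adjusted p = 0.0253).

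Clones and unedited cells were set side by side without a test, since derivation as a clone, selection and mutation cannot be told apart. All 15 clones lay below all 10 unedited libraries for 23 RP genes, against 3.61% of the 7091 genes of that level, and above for 1 (Rpl7l1), against 6.23%. Rpsa had 2227 to 3155 CPM in the clones and 3584 to 4688 CPM in unedited cells, and Rpl7l1 had 161 to 245 CPM in the clones and 127 to 150 CPM in unedited cells. Against the 2 libraries at 0 µM alone, 27 RP genes were lower in all clones (10.0% of genes of that level).

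The other genes of translation did not all move with the RP genes. Of 27 translation factors and other genes with TOP mRNAs, 6 rose and 0 fell with CHIR99021 (22.2% higher, against 5.89% of all genes), among them Snhg5 (0.14 ± 0.01 log2 units per µM, edgeR adjusted p = 4.78e-08), Snhg1 (0.07 ± 0.01, 0.000154) and Gas5 (0.09 ± 0.02, 0.00267), which are non-coding hosts of snoRNAs, and Pabpc1, which encodes the poly(A)-binding protein (0.09 ± 0.01, 6.67e-05). Between low and high clones 8 of the 27 rose and 2 fell (29.6% higher, against 13.1%). The elongation factor Eef2 rose by 0.69 ± 0.12 (edgeR adjusted p = 0.000105), Snhg6 by 1.14 ± 0.20 (0.000186) and Snhg8 by 0.65 ± 0.17 (0.00645), whereas the histone chaperone Nap1l1 fell by 0.67 on the log2 scale (0.000244).

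For ribosome assembly and mitochondrial RP genes the share that rose was near that of all genes (13.1% higher and 16.6% lower). The share that fell was smaller than that of all genes. Their median changes were 0.14 and 0.12 log2 units, with all genes at 0.01. Of the genes for RNA polymerase I and ribosome assembly, 6 of 50 rose (12%) and 2 fell (4%) between low and high clones, with a median of 0.14 log2 units. With CHIR99021 2 of 49 rose (4.08%) and 2 fell (4.08%), against 5.89% and 6.63% of all genes. Of 74 mitochondrial RP genes, whose products form the ribosome of the mitochondrion, 12 rose (16.2%) and 6 fell (8.11%) between the classes. Mrpl2 was up by 0.72 ± 0.15 (edgeR adjusted p = 0.000853) and Mrpl54 down by 0.72 on the log2 scale (0.000906). Of these 74, 1 rose (1.35%) and 4 fell (5.41%) with CHIR99021. Of 13 genes for mTORC1 and LARP1 proteins, 1 rose (Eif4ebp1, an inhibitor of cap-dependent translation, 0.36 ± 0.09, edgeR adjusted p = 0.00608) and 2 fell between the classes (Rps6kb1 and Larp4). Of 9 kinases with Rps6k names 3 fell, Rps6ka6, Rps6ka3 and Rps6kb1. With CHIR99021 edgeR called 0 of the 13 and 0 of the 9, and 0 of either list passed at an unadjusted p under 0.05.

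A further property of the group is how well the counting could see it. Of the 20 rows under 20 CPM, 19 are protein coding and include genes whose mRNAs every cell uses, such as Rps6 (3.79 CPM), Rps27 (4.94 CPM), Rpl3 (6.49 CPM) and Rpl10 (10.6 CPM). The longest protein-coding transcript was taken for each gene, or the longest of any kind where there was none. Its last 300 bases were split into words of 50 bases and searched in the GENCODE M21 transcripts of all other genes. A 3′ library places its reads near the end of the mRNA in use. That end need not be the end of the longest transcript, and whether it was the same was not tested. The median share of words found in no other gene was 83.5% for the 64 protein-coding members and 19.9% for the 19 protein-coding rows below the minimum, with medians of 2.5 and 9 other genes sharing a word. For Rps27 and Rpl10 0% of the words were unique and for Rps6 16.7%, while Rpl11 and Rpl28 had 100% and still had 11.8 and 9.96 CPM. The part of shared words in the low values was not tested, and the rows below the minimum were not read as mRNA levels.

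**Figure D4:**
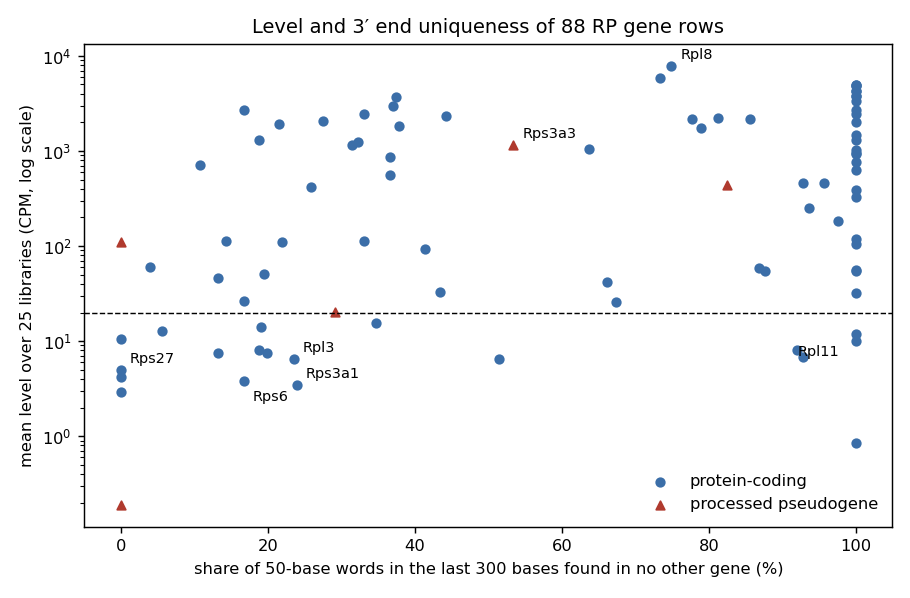
Mean level over 25 libraries (y axis, CPM, log scale) of the 88 RP rows against the uniqueness of the 3′ end (x axis). Uniqueness is the percentage of 50-base words in the last 300 bases of the transcript taken for each gene that occur in no other gene. Circles are protein-coding genes and triangles processed pseudogenes. The dashed line is the minimum of 20 CPM. Rows below it lie mostly at the left, with Rpl11 among the exceptions at 100%.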

How the data were processed

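Bulk 3′ RNA-seq with molecular identifiers (mcSCRB-seq) was used. The authors trimmed reads, removed ribosomal RNA reads (SortMeRNA), aligned with RNA STAR to mm10, removed duplicates by identifier and with Picard MarkDuplicates, and counted with featureCounts 2.0.1. The deposited values are raw counts per gene without normalization. The annotation release, strand setting and treatment of multi-mapping reads are not given in the sources used here, and removing duplicates by position limits the counts an abundant mRNA can reach. Symbols came from GENCODE M21, in which 48058 of 48440 IDs were found.

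CPM used total counts. Genes were tested by quasi-likelihood F-test in edgeR 4.0.16 (R 4.3.3) after TMM scaling and removal of low genes (filterByExpr, minimum count 10), with Benjamini-Hochberg adjustment over all genes tested, and with dose in µM over 10 libraries or with 3 classes over 15 clones. All 68 RP genes passed the filter in the main fits. SEs are the log2 change divided by the root of F. Depth, normalization, filters, DESeq2 1.42.0, blocks, covariates and left-out libraries were varied. Members and gene lists were chosen with earlier results of these data known. Genes named are the 5 largest rises and falls called in the dose and the high against low fit, paralogue pairs, Rplp0, Rps6, Rpsa, Rps27a, the 3 highest, those next to 20 CPM and, in other lists, up to 4 by lowest adjusted p. Other genes were named after their values were seen. Intervals cover counting error only.

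The replicate numbers did not pair the libraries. Over the 10 pairs of doses the deviations of replicate 1 correlated between -0.139 and 0.123, above 0.1 in 3. These 3 were the pairs among 2.5, 5 and 10 µM (0.107 to 0.123). Each of those doses correlated negatively with 0 µM (-0.139 to -0.128), and pairs with 7.5 µM lay between -0.033 and 0.021. The signs follow the split of the unedited libraries by mitochondrial share and depth. Replicates differed beyond counting noise in every group (chi-square per degree of freedom 1.33 to 3.66), so no pair was treated as 1 library in 2 copies, which does not show that they were separate cultures.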

Additional observations from a re-analysis of the deposited data

How the results depend on the processing

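Of the 42 RP genes higher in high than in low clones, 42 remained with RLE normalization, 40 with DESeq2, 38 without a filter and 31 with every library thinned to the smallest. With library total as a covariate 33 were called (31 of the 42), with codon 41 clones alone 31 (28 of the 42, chosen after seeing the data), with the ES cell marker sum 0. Leaving out 1 clone gave 24 (without T41S) to 45. Over all genes the share called higher was 13.1% in the main fit, 12.4% with DESeq2, 7.14% without a filter and 11% after thinning. It was 11.3% with library total, 9.23% with codon 41 clones, 0% with the ES cell marker sum and 6.72% without T41S. Between medium and low clones, 5 became 2 after thinning and 0 to 7 with 1 clone left out. There were 0 without T41S, 1 and 2 without an S45F clone and 3 without T41N. The share of all genes called higher was 3.66% in the main fit and 2.3% after thinning. It was 0.805% without T41S, 2.02% and 1.98% without an S45F clone and 3.6% without T41N. Between high and medium clones, 6 became 10 with DESeq2, 2 with library total as a covariate and 1 with clones of a mutation summed. With 1 clone left out there were 0 to 9. These were 0 or 1 without an S45F clone, 1 without S45P, 2 without S37A or T41A replicate 1, 3 without S37C and 9 without T41I replicate 2. The share of all genes called higher was 2.13% in the main fit, 2.66% with DESeq2, 1.26% with library total and 1.01% with clones summed. It was 0.355% and 0.342% without an S45F clone, 0.482% without S45P and 3.82% without T41I replicate 2. With the dose, 3 became 0 after thinning, where 64 of the 68 passed the filter and Rpl39l was not among them. The 3 became 6 with a block by mitochondrial share and 5 in the 6 libraries with the higher share. With 1 library left out, 1 to 4 were called (1 without either library at 0 µM or replicate 2 at 10 µM). Over all genes 5.89% were higher and 6.63% lower in the main dose fit, and 2.51% and 2.70% after thinning. The shares were 6.55% and 7.68% with the block and 4.44% and 5.42% in the 6 libraries. Those called higher were 2.47% and 3.55% without replicate 1 or 2 at 0 µM, and 5.27% without replicate 2 at 10 µM. The cause was not tested, except that thinning and left-out libraries leave fewer counts.

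With the replicate number as a block 3 RP genes were called with the dose, 2 higher and 1 lower. Over all genes 5.21% were higher and 5.83% lower in that fit. No call of a named gene changed. Under the ES cell marker covariate Rpl10l (-0.96, adjusted p = 0.649) and Rps3a2 (-0.14, adjusted p = 0.975) reversed. Of 600 values of named genes between high and low clones 532 kept direction and side of the threshold, and of 501 slopes 481. Depth limits genes near 20 CPM, where 3 counts are up to 9.80 CPM.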
